A study of Mus musculus with 2 samples.

Results

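The 8 astrocyte genes Gfap, Vim, Slc1a2, Slc1a3, Aqp4, Gja1, Aldh1l1 and S100b were described in 2 spatial transcriptomics libraries, out of 19465 genes listed in both. They were taken by symbol, and all 8 were found. Gfap was set against the summed counts of 5 genes known from grey-matter astrocytes, Slc1a2, Slc1a3, Gja1, Aldh1l1 and Aqp4, here called the grey-matter sum. Spatial transcriptomics captures RNA from a tissue section on an array of barcoded spots, each of which can hold several cells. Both libraries are from formalin-fixed, paraffin-embedded tissue. The hosts were nude mice throughout, and 1 library represents a flat implant, the other a micropillar implant. No other allele, age or time is named, and the tissue is given only as bone. The title of the series asks how surface microtopography bears on nuclear shape, secreted factors and bone regeneration. With 1 library per group there was no replicate check, and every comparison below is between these libraries, not between implant types.

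Astrocytes are glial cells that take up glutamate and potassium, couple to each other through gap junctions and place endfeet on blood vessels. Gfap, the glial fibrillary acidic protein gene, encodes an intermediate filament that is abundant in white-matter astrocytes and at brain surfaces and rises when astrocytes become reactive, while many astrocytes of the grey matter hold little of it. The glutamate transporters and the cytosolic enzyme Aldh1l1 mark astrocytes of the grey matter more evenly. Several of these genes are also used outside the brain: Vim is a filament gene of mesenchymal cells, and Gja1 encodes connexin 43, the gap junction protein of skin, bone and heart.

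Kept spots, those with at least 100 unique molecular identifiers (UMIs, counted molecules), numbered 2681 of 3161 with 2263345 UMIs in the flat library and 3064 of 3303 with 3173632 UMIs in the micropillar library. Levels are given as CPM, the UMIs of a gene per 1000000 UMIs of the spots summed. The 95% intervals are exact (Poisson for sums, Clopper-Pearson for shares and ratios) and cover counting error only. The libraries shared 2135 barcodes, which mark array positions. Spots were clustered without the 8 genes into 9 regions, of which 5 had more counts of neuron and oligodendrocyte genes than of fibroblast, osteoblast, keratinocyte and muscle genes and are called neural. These held 1590 of the flat and 1959 of the micropillar spots, so by these markers most of the tissue labelled bone was neural. Of the neural regions, region 1 was led by Slc17a7, a vesicular glutamate transporter gene, region 4 by Kcnj5, region 5 by genes that include Pde10a, a phosphodiesterase gene known from the striatum, region 6 by the neuropeptide genes Avp and Oxt, and region 9 by Ttr, which encodes transthyretin and is abundant in the choroid plexus. The others were region 2, led by the matrix gene Comp, region 3, led by the hair follicle gene Tchh, region 7, led by the epidermal gene Lor, and region 8, led by the muscle gene Tnni2, with 249 flat and 23 micropillar spots. In a spot, fewer astrocytes and less RNA per astrocyte cannot be told apart.

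Promoter windows are shown for 4 members that stand for the distributions described below, Gfap, which was concentrated in the Ttr-led region, Slc1a2, found mostly in neural regions, and Gja1 and Vim, with most of their UMIs outside them. Each window runs from 110 bases before to 10 bases into the RefSeq transcript (GRCm38.p6), 5′ to 3′ on the gene's strand, and capitals mark matches to 4 motifs searched on both strands. These were the TATA box (TATAAA), the CCAAT box (CCAAT), a STAT-type palindrome (TTCNNNGAA) and an AP-1-type motif (TGANTCA). Of 32851 such windows, 6.26% held the TATA box, 21.2% the CCAAT box, 3.17% the STAT-type and 3.37% the AP-1-type motif. The Gfap window lies at chr11:102897191-102897310 on the minus strand and has the STAT-type motif across the start, the Slc1a2 window at chr2:102706328-102706447 on the plus strand has no match, the Gja1 window at chr10:56377190-56377309 on the plus strand has the AP-1-type motif, and the Vim window at chr2:13574201-13574320 on the plus strand has the CCAAT box on the opposite strand and a TATA box. A match is a run of letters only and was not tested as a binding site. Of the 8 members, 7 were matched in the RefSeq table.
Gfap: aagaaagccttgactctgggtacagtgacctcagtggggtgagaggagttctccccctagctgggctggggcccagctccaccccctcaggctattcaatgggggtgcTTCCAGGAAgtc
Slc1a2: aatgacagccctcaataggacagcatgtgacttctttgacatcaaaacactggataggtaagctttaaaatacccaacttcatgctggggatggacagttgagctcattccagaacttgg
Gja1: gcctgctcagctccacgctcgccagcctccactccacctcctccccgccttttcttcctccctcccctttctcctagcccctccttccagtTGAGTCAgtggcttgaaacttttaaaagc
Vim: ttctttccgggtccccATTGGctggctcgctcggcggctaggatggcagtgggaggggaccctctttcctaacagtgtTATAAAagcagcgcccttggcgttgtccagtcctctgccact
The Gfap and Slc1a2 starts in RefSeq lie inside the spans that GENCODE M21 gives these genes (chromosome 11, 102887336 to 102900912, and chromosome 2, 102658659 to 102790784, mm10).

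Gfap was concentrated in the Ttr-led region 9 in both libraries. This region held 109 flat and 84 micropillar spots, 2.87% and 1.80% of all UMIs, yet 130 of 229 Gfap UMIs in the flat library (56.8%) and 68 of 359 in the micropillar library (18.9%). Its Gfap level was 2001 CPM (interval 1672 to 2376) in the flat and 1191 CPM (925 to 1510) in the micropillar library. Against the other neural regions together this was 40.3-fold (30.6 to 53.2) in the flat and 12-fold (9.0 to 15.8) in the micropillar library, where the other neural regions had 49.7 and 99.4 CPM. The grey-matter sum was only 3.08-fold (2.64 to 3.58) and 2.13-fold (1.76 to 2.57) higher there. A few spots weighed heavily in the flat library, where the 10 spots with most Gfap held 24.5% of its UMIs, against 10.6% in the micropillar library.

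The remaining neural regions had much less Gfap, and in all 4 of them the micropillar value was the higher one. In the Slc17a7-led region 1, Gfap had 47.9 CPM (36.1 to 62.3, 55 UMIs) in the flat and 85.1 CPM (69.9 to 103, 110 UMIs) in the micropillar library. The Kcnj5-led region 4 had 93.6 CPM (24 UMIs) and 172 CPM (79 UMIs). Region 5 had 16.5 CPM on 5 UMIs and 56.4 CPM on 12 UMIs, the lowest of the neural regions in both libraries. The Avp-led region 6 had 55.7 CPM on 8 UMIs and 81.8 CPM on 27 UMIs, with intervals that overlap those of region 1 in both libraries. Outside the neural regions Gfap had 7 flat UMIs in all. These lay in the Comp-led region 2 (5 UMIs, 45.1 CPM) and the Lor-led region 7 (2 UMIs), with 0 in regions 3 and 8. In the micropillar library the Tchh-led region 3 had 48 UMIs, 13.4% of the library's Gfap, at 95.3 CPM (70.2 to 126), with an interval that overlaps those of neural regions 1, 5 and 6. Region 2 had 13 micropillar UMIs at 67.4 CPM, region 7 had 2 and region 8 had 0.

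**Figure D1:**
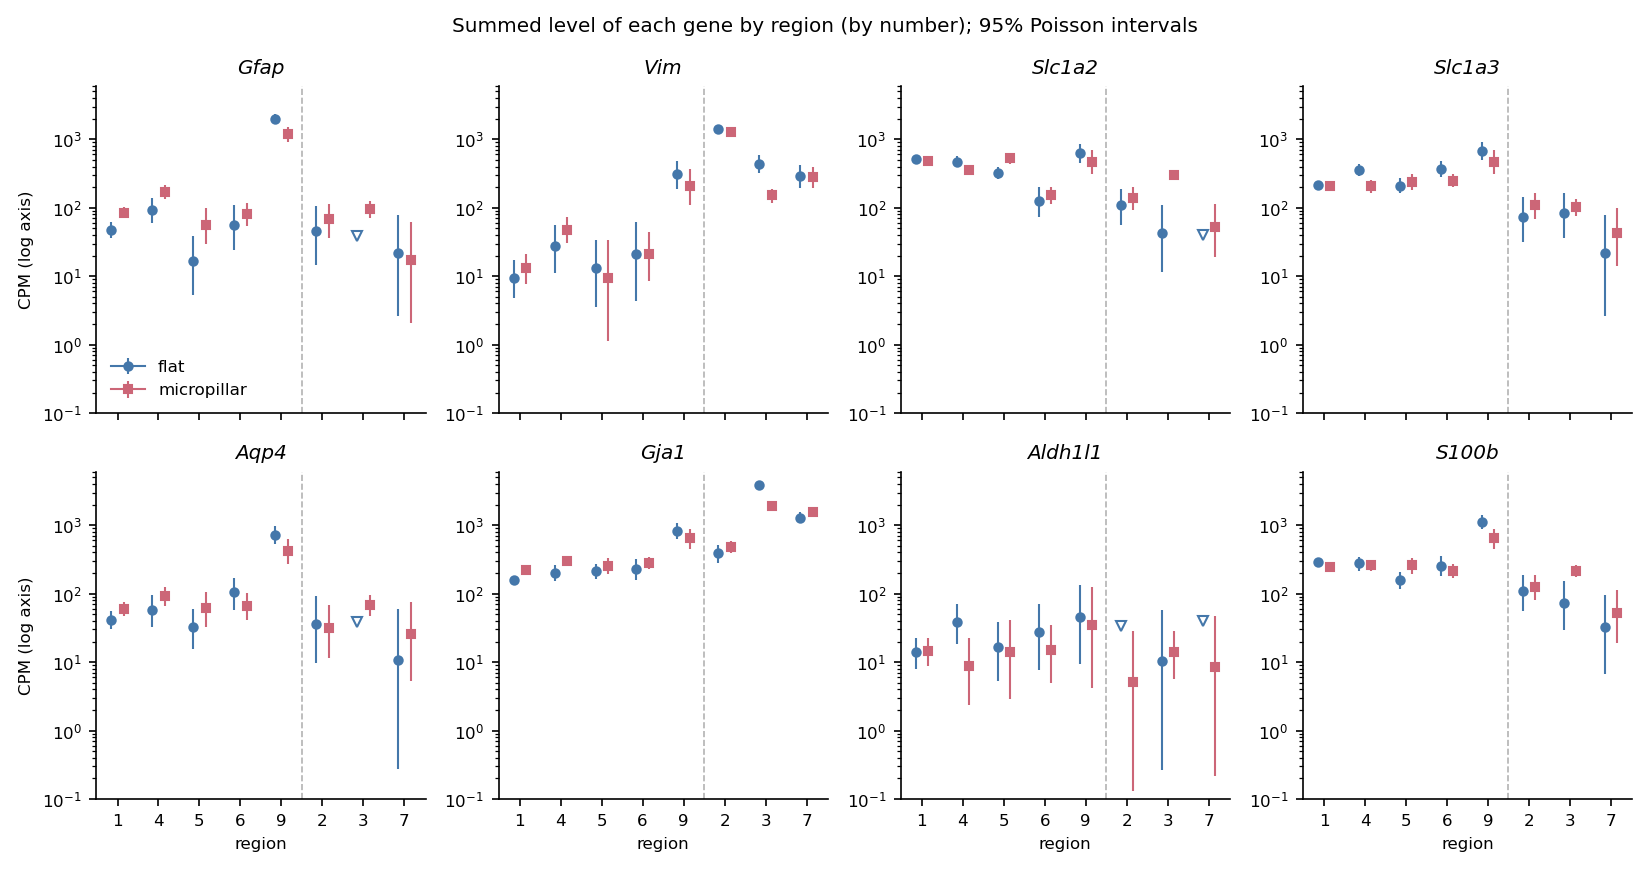
CPM of each of the 8 genes on a log axis (vertical) in 8 regions (horizontal, by number, neural regions left of the dashed line), flat library as blue circles and micropillar library as red squares, bars giving 95% Poisson intervals and open triangles the upper limit where no UMI was found. Gfap is at 2001 and 1191 CPM in the Ttr-led region 9 and at or below 172 CPM elsewhere, whereas Vim is highest in the Comp-led region 2 and Gja1 in the Tchh-led region 3. Region 8, with 23 micropillar spots, is left out.

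Vim, the second intermediate filament gene of the set, had the opposite distribution. Of its 283 flat and 422 micropillar UMIs, only 45 and 60 came from neural regions, and the Comp-led region 2 held 54.8% and 58.5%. Its level there was 1398 CPM (1186 to 1636) and 1281 CPM (1126 to 1451), against 23.5 and 25.5 CPM in the neural regions. Within the neural regions Vim was, like Gfap, highest in the Ttr-led region, with 308 CPM (20 UMIs) and 210 CPM (12 UMIs). This was 22.8-fold (12 to 42.8) and 10.0-fold (4.86 to 19.2) above the other neural regions. The label of astrocyte gene therefore did not hold for Vim over the section, where most of its UMIs lay in spots led by matrix genes.

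The glutamate transporters Slc1a2 (GLT-1) and Slc1a3 (GLAST) followed the neural regions. Slc1a2 had 878 of 896 flat and 967 of 1151 micropillar UMIs there, and Slc1a3 503 of 521 and 527 of 605. Slc1a2 had 521 CPM (480 to 565) and 476 CPM (439 to 515) in the Slc17a7-led region and 125 CPM (74.3 to 198) and 154 CPM (115 to 203) in the Avp-led region, its lowest neural level. Slc1a3 did not share this low value, with 369 CPM (277 to 483) and 248 CPM (198 to 308) in the Avp-led region against 218 and 211 CPM in the Slc17a7-led region. As a result Slc1a2 made up 70.6% (67.4 to 73.6) and 69.3% (66.1 to 72.3) of the UMIs of both transporters in the Slc17a7-led region but 25.4% (15.8 to 37.1) and 38.3% (30.1 to 47.2) in the Avp-led region. The other neural regions lay between, at 56.8% and 63.3% in region 4, 60.7% and 68.7% in region 5 and 48.2% and 50.0% in region 9.

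Aqp4, the water channel of astrocyte endfeet, and S100b, a calcium-binding protein gene, were highest in the same region as Gfap. Aqp4 had 723 CPM (531 to 962) and 420 CPM (269 to 625) in the Ttr-led region, 15.2-fold (10.5 to 21.9) and 6.22-fold (3.87 to 9.60) above the other neural regions. S100b had 1108 CPM (867 to 1395) and 648 CPM (456 to 893) there, 4.17-fold (3.21 to 5.35) and 2.66-fold (1.86 to 3.72) above them. S100b was otherwise flatter across the neural regions, between 158 and 292 CPM in the flat library and between 215 and 259 CPM in the micropillar library. Aldh1l1, a folate-metabolism enzyme gene and a widely used astrocyte marker, had 39 and 42 UMIs in all, with at most 19 in any region and library, too few to rank the regions.

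Gja1 had most of its UMIs outside the neural regions, so the label of astrocyte gene did not hold for it over the section either. The neural regions gave 383 of its 922 flat and 614 of its 1861 micropillar UMIs, and the Tchh-led region 3 gave 39.6% and 52.1%. Its level was 3838 CPM (3454 to 4253) and 1925 CPM (1806 to 2050) in region 3 and 1293 CPM (1071 to 1547) and 1566 CPM (1347 to 1811) in the Lor-led region 7, against 200 and 261 CPM in the neural regions. In regions 3 and 7 the grey-matter sum was mostly Gja1. In region 3 of the flat library 365 of the 378 UMIs of the grey-matter sum were Gja1, and in region 7 it was 119 of 122.

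Gfap as a share of Gfap plus the grey-matter sum therefore separated the regions. In the Ttr-led region it was 40.8% (35.3 to 46.4) in the flat and 36.8% (29.8 to 44.1) in the micropillar library, the highest of all regions in both. In the other neural regions it ran from 2.02% to 7.64% in the flat library and from 4.90% to 15.2% in the micropillar library, lowest in region 5 and highest in the Kcnj5-led region. The Slc17a7-led region had 4.80% (3.63 to 6.20) in the flat and 7.94% (6.57 to 9.49) in the micropillar library, intervals that do not overlap, and the Kcnj5-led region 7.64% (4.96 to 11.2) and 15.2% (12.2 to 18.6), which do not overlap either. The size of both differences depended on the clustering. At a finer resolution of 1.0 the micropillar share stayed the higher one. It was 3.26% and 6.56% in the match of the Slc17a7-led and 7.44% and 13.9% in that of the Kcnj5-led region. At a coarser one of 0.4 both matched the same larger region of 2776 spots, which had 10.9% and 11.7%. The spots shared with it were 64.5% of those in either for the Slc17a7-led region, but 24.4% for the Kcnj5-led region. Of the Ttr-led region only 74 spots lay in its match at 0.4. Over the section the share was 8.33% (7.32 to 9.43) and 8.47% (7.65 to 9.35), so that the regional differences were not visible in the total. The grey-matter sum of the section includes Gja1 of the Tchh-led region, 365 of its 2520 flat and 970 of its 3881 micropillar UMIs. The part of this Gja1 in the section shares was not tested. Over the neural regions together the share was 10.3% (9.03 to 11.6) and 11.3% (10.1 to 12.6).

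**Figure D2:**
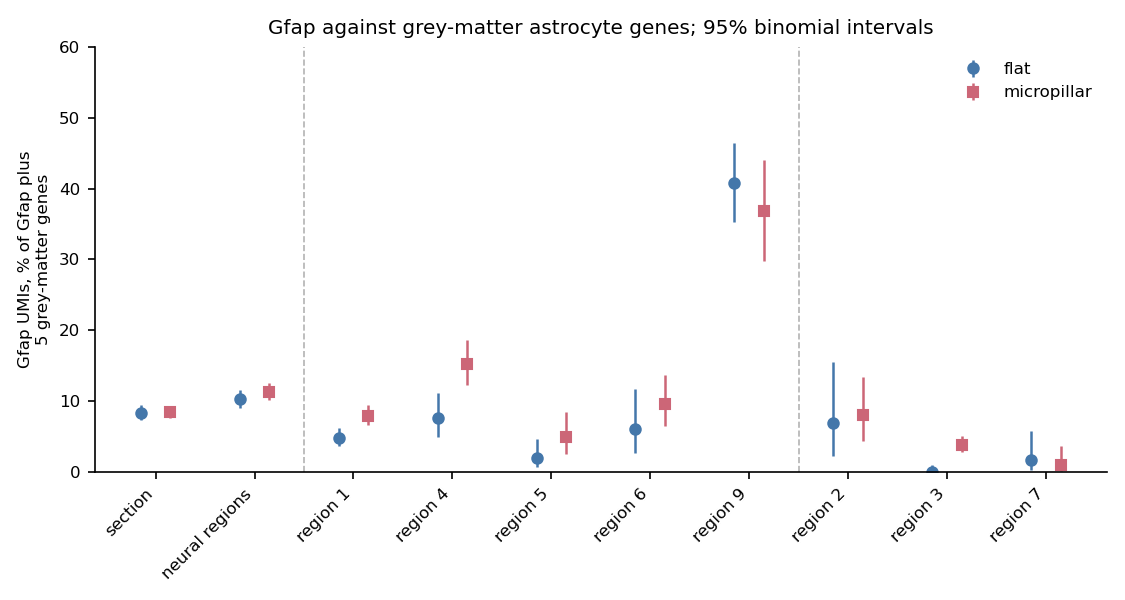
Gfap UMIs as a percentage of Gfap plus the 5 grey-matter genes (vertical axis) for the section, the neural regions together and 8 single regions (horizontal axis), flat library as blue circles and micropillar library as red squares with 95% binomial intervals. The Ttr-led region 9 stands at 40.8% and 36.8%. The section totals are 8.33% and 8.47%, with Gja1 of skin regions in the sum, and the neural regions together are at 10.3% and 11.3%.

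Between the libraries, the section totals of most members were close. A member was counted where its ratio passed 1.5-fold and its level reached 20 CPM in either library. Of the 7 members that reached 20 CPM, which leaves out Aldh1l1, 0 were past 1.5-fold, against 7.07% of all 8077 such genes. Gja1 had 407 CPM (381 to 435) in the flat and 586 CPM (560 to 614) in the micropillar library, and its log2 ratio, given throughout as micropillar over flat, was 0.52 (0.41 to 0.64). It was the only member whose interval lay above 0, as it did for 15.4% of genes. With the same region weights in both libraries, each region weighing by its UMIs over both, the ratio was -0.37. The Tchh-led region with its high Gja1 took 203 flat but 506 micropillar spots, and within it Gja1 had 3838 and 1925 CPM, -0.99 (-1.17 to -0.82). The part of each in the change of the ratio was not tested. Over the neural regions alone the Gja1 ratio was 0.38 (0.20 to 0.57), and 0.39 with the same region weights in both libraries. Over the section Slc1a3 had 230 and 191 CPM, -0.27 (-0.44 to -0.10), and S100b 260 and 231 CPM, -0.17 (-0.33 to -0.01). For these 2 members the interval lay below 0, as for 11.9% of genes.

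The other members did not differ beyond counting error over the section. Gfap had 101 CPM (88.5 to 115) and 113 CPM (102 to 125), a log2 ratio of 0.16 (-0.08 to 0.41), and Aqp4 62.7 and 70.0 CPM, 0.15 (-0.15 to 0.47). Slc1a2 had 396 and 363 CPM, -0.13 (-0.25 to 0.00), a direction that turned to 0.18 when every spot weighed the same and to 0.05 with the same region weights in both libraries. Vim had 125 and 133 CPM, 0.09 (-0.13 to 0.31), with -0.21 and -0.34 under the same settings, and Aldh1l1 17.2 and 13.2 CPM, -0.36 (-1.04 to 0.29). The grey-matter sum had 1113 and 1223 CPM, 0.14 (0.06 to 0.21), but -0.18 with the same region weights in both libraries. Spots with at least 1 UMI of Gfap made up 5.26% (4.44 to 6.17) of flat and 8.58% (7.62 to 9.63) of micropillar spots, at median depths of 602.0 and 831.0 UMIs per spot, while in the muscle-led region 8, where Gfap should be lacking, 0 of 249 flat spots held one (up to 1.47%) at a median of 165.0 UMIs. The libraries' shares were not thinned to a common depth.

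Over the neural regions together the picture was similar, but it joined 2 opposite differences in Gfap. In all 5 neural regions 0 of 7 members were past 1.5-fold (background 6.99%), and Gfap had 116 and 126 CPM, 0.12 (-0.14 to 0.38), or -0.02 when every spot weighed the same. With the Ttr-led region left out, Gfap had 92 UMIs, 49.7 CPM (40.0 to 60.9), in 1481 flat spots and 228 UMIs, 99.4 CPM (86.9 to 113), in 1875 micropillar spots, with a log2 ratio of 0.99 (0.65 to 1.37). This set of regions was chosen after the distribution of Gfap was seen. In it 2 of 7 members, Gfap and Vim, were past 1.5-fold upward, against 5.31% of genes, though Vim rested on 25 and 48 UMIs with an interval that included 0, 0.60 (-0.09 to 1.39). Aqp4 had 47.5 and 67.6 CPM, 0.50 (0.12 to 0.90), and Gja1 178 and 251 CPM, 0.50 (0.30 to 0.70), so that with Gfap the interval lay above 0 for 3 members, as for 12.9% of genes. Slc1a2 at -0.14 (-0.28 to -0.01), Slc1a3 at -0.18 (-0.37 to 0.00), S100b at -0.13 (-0.30 to 0.05) and the grey-matter sum at 0.03 (-0.07 to 0.12) did not share this direction.

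**Figure D3:**
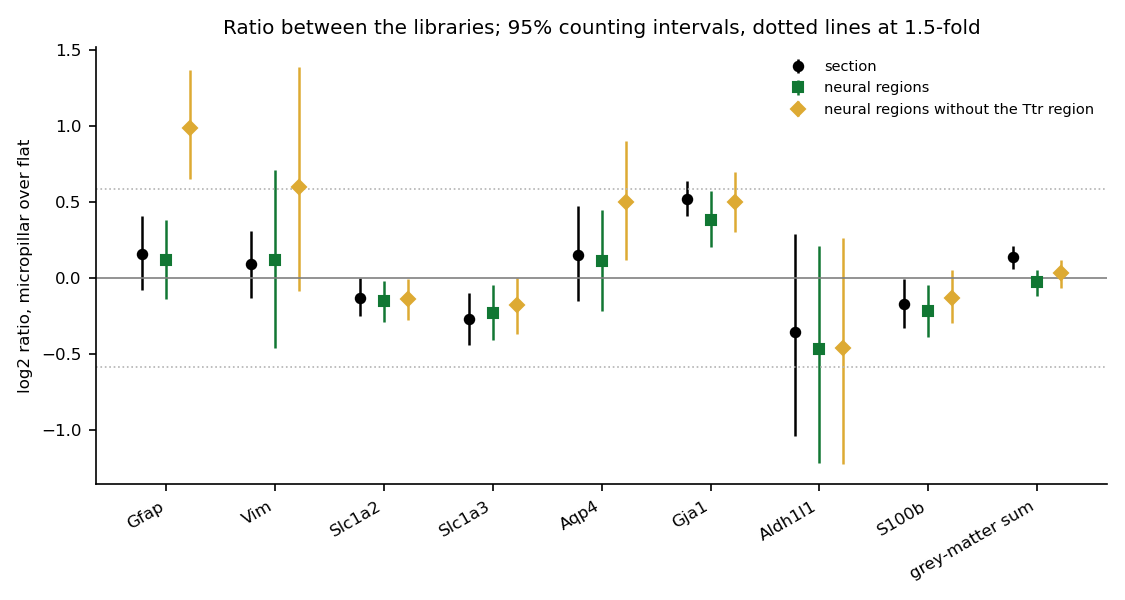
Log2 ratio of micropillar over flat (vertical axis) for the 8 genes and the grey-matter sum (horizontal axis) over the section (black circles), the 5 neural regions (green squares) and the neural regions without the Ttr-led one (yellow diamonds), with 95% counting intervals and dotted lines at 1.5-fold. Gfap moves from 0.16 and 0.12 to 0.99 when the Ttr-led region is left out, while Slc1a2 stays between -0.15 and -0.13 and Slc1a3 between -0.27 and -0.18.

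Region by region, Gfap was past 1.5-fold upward in the Slc17a7-led and Kcnj5-led regions and past 1.5-fold downward in the Ttr-led region. The log2 ratio was 0.82 (0.35 to 1.32) in the Slc17a7-led region, where Gfap was the only 1 of 8 members past 1.5-fold upward, against 6.28% of genes with at least 20 UMIs there. Gja1 in the same region had 156 and 225 CPM, 0.53 (0.26 to 0.81), S100b 292 and 242 CPM, -0.27 (-0.50 to -0.05), and the grey-matter sum 950 and 987 CPM, 0.05 (-0.06 to 0.17). Without the spot of each library with most Gfap the Gfap ratio was 0.83, and in spots with at least 500 UMIs 0.74. Other markers moved with it. In the Slc17a7-led region the summed level of the 10 oligodendrocyte genes was 2847 and 4012 CPM and that of the 10 neuron genes 9456 and 8368 CPM, with 0 genes of either list at 0, and keratinocyte genes had 118 and 295 CPM. The part of these shifts in the Gfap ratio was not tested.

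In the Kcnj5-led region Gfap had a log2 ratio of 0.87 (0.21 to 1.60). There 3 of 7 members were past 1.5-fold upward (Gfap, Aqp4 and Vim), against 14.8% of genes, and Slc1a3 was past it downward, with 359 and 205 CPM, -0.81 (-1.24 to -0.38), against 9.95%. The intervals of Aqp4, 0.64 (-0.23 to 1.60), and Vim, 0.79 (-0.46 to 2.28), included 0. Other markers differed here too: keratinocyte genes had 168 and 351 CPM, meningeal fibroblast genes 573 and 329 CPM, oligodendrocyte genes 4279 and 5301 CPM and the neuron gene Slc17a7 979 and 384 CPM. Their part was not tested. In region 5 Gfap, at 1.72 (0.17 to 3.63), had too few UMIs to enter the count, while Aqp4, Slc1a2 and S100b, 3 of 5 members, were past 1.5-fold upward, against 10.4% of genes, although the interval of Aqp4, 0.87 (-0.41 to 2.24), included 0. Slc1a2 had 326 CPM (265 to 397) and 527 CPM (434 to 634) there, 0.69 (0.29 to 1.10), opposite in sign to its value in the Kcnj5-led region, -0.42 (-0.77 to -0.07). In the Avp-led region Gfap had 0.54 (-0.63 to 1.90), and 1 of 6 members was past 1.5-fold, Aqp4, downward with 105 and 66.6 CPM, -0.64 (-1.66 to 0.40), against 10.7% of genes. Ependymal genes summed to 348 and 106 CPM in that region, with 2 and 1 of 7 at 0, and their part was not tested.

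The Ttr-led region went the other way for the whole set. All 8 members had the lower value in the micropillar library, and 3 of the 7 with at least 20 UMIs, Gfap, Aqp4 and S100b, were past 1.5-fold downward, against 14.6% of genes there. For the same 3 the interval lay below 0, as for 4.20% of genes. The log2 ratios were -0.75 (-1.19 to -0.31) for Gfap, -0.78 (-1.56 to -0.04) for Aqp4 and -0.77 (-1.39 to -0.18) for S100b, and between -0.55 and -0.36 for Slc1a2, Slc1a3, Gja1, Vim and Aldh1l1, whose intervals included 0. Over the 1358 genes counted there the median ratio was -0.01. The makeup of these spots differed as well: the 6 choroid plexus genes summed to 14282 CPM in the flat library, with 1 of them at 0, and 18754 CPM in the micropillar library, with 0 at 0, the oligodendrocyte genes to 16668 and 13623 CPM, and the 7 ependymal genes to 893 and 981 CPM.

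Within the Ttr-led region Gfap was lower in spots with more choroid plexus UMIs. After thinning to 250 UMIs, 43 flat and 26 micropillar spots without a choroid plexus UMI averaged 0.977 (0.704 to 1.32) and 0.692 (0.410 to 1.09) Gfap UMIs per spot. Spots with 4 or more choroid plexus UMIs, 32 and 30, averaged 0.219 (0.0879 to 0.451) and 0.10 (0.0206 to 0.292). The grey-matter sum was lower along the same bins, from 1.37 to 0.406 in the flat and from 0.846 to 0.300 in the micropillar library. Flat spots without choroid plexus UMIs also had more Gfap than micropillar spots of that kind, but by less than the width of the intervals. The part of the choroid plexus makeup in the lower micropillar values was not tested.

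**Figure D4:**
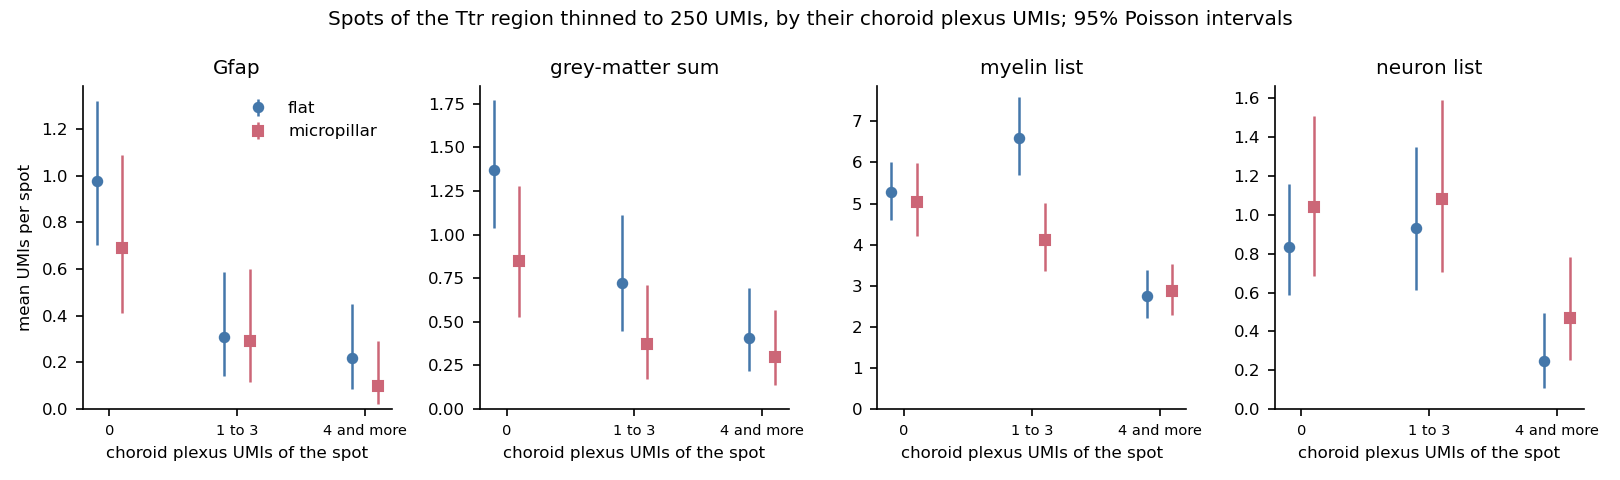
Mean UMIs per spot (vertical axes) of Gfap, the grey-matter sum, the oligodendrocyte (myelin) list and the neuron list in spots of the Ttr-led region thinned to 250 UMIs, binned by their choroid plexus UMIs (horizontal axes), flat library as blue circles and micropillar library as red squares with 95% Poisson intervals. Gfap falls from 0.977 and 0.692 UMIs in spots without choroid plexus UMIs to 0.219 and 0.10 in spots with 4 or more.

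The Tchh-led region showed member differences that went with neural genes in the micropillar spots. Gfap had 0 UMIs in 203 flat spots, with an upper limit of 38.8 CPM, and 48 UMIs, 95.3 CPM (70.2 to 126), in 506 micropillar spots. Aqp4 had 0 UMIs with the same limit and 34 UMIs, 67.5 CPM (46.7 to 94.3), and Slc1a2 42.1 and 300 CPM. Of 7 members, 4 were past 1.5-fold upward and 2, Gja1 and Vim, downward, but 64.8% of all genes were past it in this region. The 10 neuron genes summed to 557 and 4517 CPM there, with 3 and 0 of them at 0, and the 10 oligodendrocyte genes to 368 and 2926 CPM, with 3 and 0 at 0, so the region did not hold the same kind of spot in both libraries.

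The neural regions of the micropillar library also held more counts of skin and connective tissue genes. Keratinocyte genes summed to 137 CPM in the flat and 304 CPM in the micropillar library over the neural regions, and fibroblast matrix genes to 298 and 512 CPM. In neural spots outside the Ttr-led region that held no UMI of either list, 924 flat and 807 micropillar, Gja1 had 196 and 256 CPM, 0.38 (0.10 to 0.67), and Gfap 59.3 and 99.7 CPM, 0.74 (0.26 to 1.25). In the 557 and 1068 spots with such a UMI Gja1 had 153 and 249 CPM, 0.70 (0.40 to 1.01), and Gfap 36.7 and 99.2 CPM, 1.41 (0.85 to 2.06). Vim in the spots without such a UMI had 19 and 12 UMIs, -0.29 (-1.49 to 0.81), and in the spots with a skin or matrix UMI 6 and 36, 1.58 (0.44 to 3.23). These 3 genes had the larger ratio in spots that also held skin or matrix UMIs. Aqp4 (0.53 without and 0.52 with), Slc1a3 (-0.16 and -0.15) and the grey-matter sum (0.06 and 0.06) hardly differed. Slc1a2 (-0.03 and -0.16), S100b (-0.03 and -0.17) and Aldh1l1 (0.03 and -0.83) had the lower ratio there. The difference between the 2 kinds of spot was not tested, and these spots were not thinned to a common depth. This split of the spots was added after the values were seen.

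Across neural spots, Gfap and the grey-matter genes went together and did not exclude each other. Each spot was thinned to 500 UMIs, which kept 1310 flat and 1585 micropillar spots and left out 280 and 374 shallower ones. The 57 flat spots with a Gfap UMI averaged 1.82 UMIs of the grey-matter sum, against 0.481 in the others, 3.79-fold (3.05 to 4.68), and the 75 micropillar spots with one averaged 1.07 against 0.522, 2.04-fold (1.60 to 2.58). Outside the Ttr-led region the folds were 2.40 and 1.79, and with spots thinned to 1000 UMIs 2.01 (1.45 to 2.73) and 1.53 (1.14 to 2.01). Thinned to 250 UMIs, the flat fold was 2.51 (1.78 to 3.45). Spots with 2 to 3 Gfap UMIs, 13 and 18, held 1.77 (1.12 to 2.65) and 1.33 (0.854 to 1.98) UMIs of the grey-matter sum. Spearman's rho of Gfap with the grey-matter sum over spots of 1 library and equal depth was 0.20 and 0.13, and most spots held no Gfap UMI.

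Gfap-bearing spots of the neural regions, the Ttr-led region included, also held more myelin and fewer neuron UMIs. The Ttr-led region had 16668 and 13623 CPM of oligodendrocyte genes and 3032 and 3362 CPM of neuron genes. In the Slc17a7-led region these were 2847 and 4012 CPM and 9456 and 8368 CPM. With the Ttr-led region left out, 28 flat and 62 micropillar spots held a Gfap UMI, against 57 and 75 with it. The bins without that region are not given here. Along Gfap bins of 0, 1 and 2 to 3 UMIs, the oligodendrocyte list averaged 1.89, 5.44 and 10.0 UMIs per spot in the flat and 2.33, 5.02 and 7.17 in the micropillar library. The neuron list averaged 3.56, 2.62 and 2.08 in the flat and 3.45, 2.82 and 2.11 in the micropillar library. A list of 29 other astrocyte genes of the homeostatic state averaged 4.48, 14.1 and 22.2 in the flat and 4.88, 8.89 and 17.0 in the micropillar library. Binned the other way, Gfap itself averaged 0.0196 (0.0107 to 0.0329) and 0.0205 (0.0115 to 0.0338) UMIs in spots with 0 or 1 oligodendrocyte UMI and 0.723 (0.531 to 0.962) and 0.323 (0.218 to 0.461) in spots with 8 or more. Slc1a2 showed less of this, with 0.213 and 0.208 in the former spots and 0.538 (0.375 to 0.749) and 0.290 (0.191 to 0.422) in the latter.

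**Figure D5:**
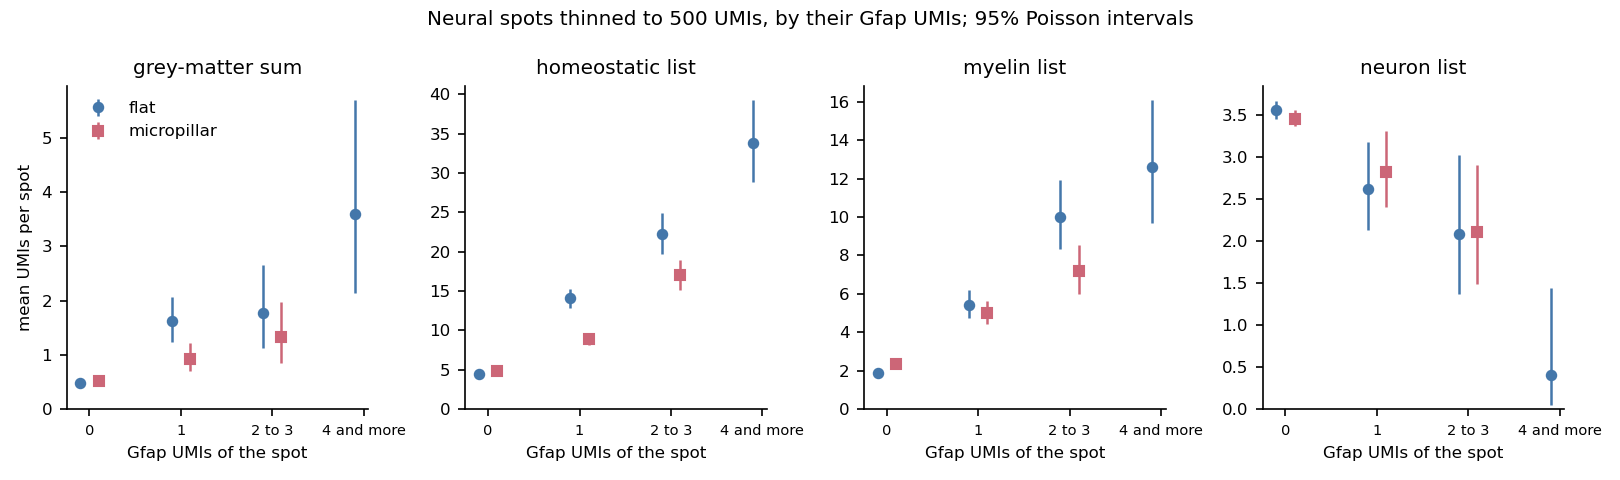
Mean UMIs per neural spot thinned to 500 UMIs (vertical axes) of the grey-matter sum, the homeostatic astrocyte list, the oligodendrocyte (myelin) list and the neuron list, by the Gfap UMIs of the spot (horizontal axes), flat library as blue circles and micropillar library as red squares with 95% Poisson intervals. Spots of the Ttr-led region are included. All but the neuron list are higher in spots with more Gfap, and the neuron list falls from 3.56 and 3.45 UMIs at 0 Gfap UMIs to 2.08 and 2.11 at 2 to 3, bins under 5 spots being left out.

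Over 17 profiles, the sums of each region and library with at least 30 spots, the members formed 2 sets. Pearson's r of log2(CPM + 1) was 0.83 for Gfap with Aqp4 and with S100b, 0.74 with Slc1a3 and 0.53 with Slc1a2, but -0.16 with Gja1 and -0.12 with Vim. Gja1 and Vim had an r of 0.63 with each other and negative values with the other members. These are descriptions over points that share their library and, within a region, its makeup. Among 7258 other genes, the 6 with a pattern most like Gfap were Ptprz1, Gpr137, Odf2l, Cd81 and Cntn2 at 0.89 and Ntrk2 at 0.88. The likeness did not extend to the size of the Gfap peak in the Ttr-led region. There Ptprz1 had 92.3 and 70.0 CPM (section 27.8 and 48.2) and Cntn2 61.6 and 123 CPM (section 36.7 and 45.1). Cd81, the highest of the 6 there, had 1354 and 1121 CPM (section 528 and 677). Gfap had 2001 and 1191 CPM (section 101 and 113). Ptprz1 is a receptor phosphatase gene known from glia, Cntn2 encodes a contactin of myelinated axons and Ntrk2 the BDNF receptor. The grey-matter sum was most like Elovl7 at 0.86 and Sowahc at 0.84, followed by Rbm39, Sbf1, Uck2 and Gtf2ird1.

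Other astrocyte genes showed no common shift between the libraries. Of 29 homeostatic astrocyte genes with at least 5 CPM over the section, 15 were higher and 14 lower in the micropillar library, with 2 and 1 past 1.5-fold and a median log2 ratio of 0.05, against 0.06 for all 11887 such genes, of which 56.9% were higher and 13.6% past 1.5-fold. Cst3, the cystatin C gene and the most abundant, had 3222 and 2994 CPM, -0.11 (-0.15 to -0.06). The GABA transporter gene Slc6a11 had the highest ratio, 18.1 and 34.7 CPM, 0.90 (0.41 to 1.49), and the bicarbonate transporter gene Slc4a4 the lowest among those with at least 20 CPM, 86.2 and 68.7 CPM, -0.32 (-0.61 to -0.04). Over the neural regions 19 were higher and 10 lower, 2 past 1.5-fold each way, with a median of 0.13. For all genes there the median was 0.05, with 56.5% higher and 14.0% past 1.5-fold.

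Genes linked to reactive astrocytes showed no common shift in spots with at least 100 UMIs, but in spots with at least 500 UMIs their section median was 0.42, and 0.02 in the neural regions. Of 32, 24 reached 5 CPM over the section, 13 higher and 11 lower, 1 past 1.5-fold each way, with a median of 0.03. Of all genes 56.9% were higher and 13.6% past 1.5-fold, with a median of 0.06. The metallothionein gene Mt1, the most abundant, had 785 and 813 CPM, 0.05 (-0.04 to 0.14), and Stat3, a transcription factor gene of the reactive response, 28.3 and 24.3 CPM, -0.21 (-0.72 to 0.28). Tnc, the tenascin C gene, had the highest ratio, 23 and 42.9 CPM, 0.87 (0.43 to 1.39), with only 3 and 21 of its 52 and 136 UMIs in neural regions. In the neural regions 19 of the genes linked to reactive astrocytes were measured, 11 higher and 8 lower, with a median of 0.09. Past 1.5-fold were 2 of them upward and 3 downward. Of all genes there 56.5% were higher and 14.0% past 1.5-fold in either direction, with a median of 0.05. Within single regions the summed level of the list was 855 and 1094 CPM in the Slc17a7-led region, 1104 and 1533 CPM in region 5 and 7711 and 6024 CPM in the Ttr-led region, which is the direction of Gfap there. It was 1287 and 1297 CPM in the Kcnj5-led, 1156 and 993 CPM in the Avp-led, 6222 and 4823 CPM in the Comp-led and 5131 and 2713 CPM in the Tchh-led region, where Gfap had the higher micropillar value. Of the 32 genes, 8 and 4 were at 0 in the Slc17a7-led region, 15 and 16 in region 5 and 11 and 12 in the Ttr-led region. In the Ttr-led region Mt1 alone gave 266 of the list's 501 flat and 198 of its 344 micropillar UMIs.

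Over the section the partners of Aqp4 and the filament genes showed no common shift either. Of 9 genes of the endfoot dystrophin complex and its matrix ligands, 4 were higher and 5 lower, with a median of -0.00. Of these 0 were past 1.5-fold, against 13.6% of all genes, whose median was 0.06. Over the neural regions 5 were higher and 4 lower, 1 past 1.5-fold, with a median of 0.17. For all genes there it was 14.0% past 1.5-fold and a median of 0.05. Dtna had 79.1 and 76.6 CPM, Cav1 had 19.4 and 25.8 CPM and Dag1, the dystroglycan gene, 61.9 and 52.6 CPM, -0.23 (-0.57 to 0.10). Of 9 other intermediate filament genes 4 were higher and 5 lower over the section. Among them 1 was past 1.5-fold, against 13.6% of all genes, Des, the desmin gene of muscle, at 63.6 and 16.7 CPM. The neurofilament genes Nefl and Ina had 667 and 669 CPM and 148 and 168 CPM.

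Oligodendrocyte genes were mostly higher in the micropillar library over the section, as their sums were in the Slc17a7-led and Kcnj5-led regions. Of 9 with at least 5 CPM, 8 were higher and 1 lower in the micropillar library, with a median of 0.23. Of all genes 56.9% were higher, with a median of 0.06. Cldn11, a myelin claudin gene, had 160 and 136 CPM, -0.24 (-0.44 to -0.03). Of 5 measured ependymal genes 3 were higher, at a median of 0.02, and the most abundant, Rarres2, had 72.5 and 79.7 CPM, 0.14 (-0.15 to 0.43).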

How the data were processed

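Raw UMI counts for every gene in every spot were deposited. Per the file headers they were made by the authors with Space Ranger 2.0.1, and per the submitters' processing notes with Cell Ranger 7.2.0 and mm10, which do not name the same tool. The probe set is not given in the sources used here. Each library is 1 group, so no test was made. Of 11 symbols on 2 rows the row with more counts was used. Spots with at least 100 UMIs were normalised to 10000 UMIs, and 2000 variable genes without the members and 30 principal components were clustered with leidenalg 0.10.2 at a resolution of 0.6, with no doublet caller. Ratios have a pseudocount of 1 CPM, their intervals none. Spots differ in depth, so spots were thinned to 500 or 250 UMIs before they were compared. edgeR 4.0.16 and DESeq2 1.42.0 gave only the scaling factors of alternatives. The intervals, but not the ratios with a pseudocount, were run on simulated Poisson counts. That is the model they assume, without spread between spots or sections, so the run does not show how they perform on these data. Spot positions were not used here. The members, lists and tests were chosen with earlier results of these data known. Named are all members, from each of 6 lists the most abundant gene and the genes of highest and lowest ratio among those reaching 20 CPM, and the 6 genes most like Gfap and the grey-matter sum, among those with at least 20 CPM in both libraries. Of the genes this rule names, 1 is not reported here.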

Additional observations from a re-analysis of the deposited data

Results flagged for a closer look

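Spots under 100 UMIs were not used in the comparisons, yet they held UMIs of some members above the limit that a count of 0 allows. The 480 flat spots of this kind held 7 UMIs of Gfap, 19 of Gja1, 5 of S100b and 8 of Vim. The 239 micropillar spots of this kind held 11 UMIs of Gja1 and 7 of Vim. With no minimum of UMIs per spot the section ratio of Gfap was 0.14.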

How the results depend on the processing

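Of 274 values recomputed under other settings, 230 stayed within the limits set for them (a counting interval where there is one, 1.5 times for counts of genes, the width of the list sum's interval for medians and a width set by the number of spots for rho) and 44 left them. The section ratio of Gja1, 0.52, became -0.37 with the same region weights in both libraries. Over the neural regions its ratio was 0.38 and stayed at 0.39 with the same region weights. Among the ratios within regions only those of Gfap and of the grey-matter sum in the neural regions were recomputed. No paired analysis was possible because each group has 1 library and the labels give no replicate numbers, and for the same reason no replicate could be left out. The section ratio of the grey-matter sum was 0.24 with every spot weighted equally. It was -0.18 with the same region weights in both libraries, each region weighing by its UMIs over both. In spots with at least 500 UMIs 2 members were past 1.5-fold over the section, Gja1 (0.71) and Vim (0.61). In neural regions 1 member was past it with spots weighted equally, Aldh1l1 (-0.78), and 1 at a clustering resolution of 1.0, Gja1 (0.61). Without the Ttr-led region there were 2, Gfap (0.99) and Vim (0.60). These counts took all 8 members with no minimum of 20 CPM, which Aldh1l1 did not reach in the main count. Apart from the set without the Ttr-led region, no share of all genes was computed for these settings. The Gfap share in region 1 was 3.26% (flat) and 6.56% (micropillar) at resolution 1.0, 10.9% and 11.7% at 0.4, and 6.03% (micropillar) in spots with at least 500 UMIs. In region 9 of the flat library it was 47.8% without Aqp4 in the sum. The grey-matter fold of spots with Gfap was 2.01 (flat) and 1.53 (micropillar) at 1000 UMIs, 2.64 and 1.57 over all regions, 2.51 (flat) at 250 UMIs and 2.40 (flat) without the Ttr-led region. With TMM factors the median of homeostatic genes was -0.00 over the section and 0.07 in neural regions, and that of oligodendrocyte genes 0.18 and 0.15, or 0.16 at 20 CPM. In spots with at least 500 UMIs the section medians were 0.09 for homeostatic and 0.42 for reactive genes. The cause of these shifts was not tested. Depth limits Aldh1l1 and all values on under 20 UMIs.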
